A study of Mus musculus with 16 samples.

Results

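Full-thickness skin wounds of estrogen-treated diabetic db/db mice were compared with wounds of WT mice on the arrays labelled day 7, which answers what still separated the treated diabetic wound from the WT wound. The comparison took the 2 arrays titled for estrogen treatment and the 2 titled for WT at that day, 4 of the 16 arrays of the series. The estrogen-treated animals were 10-week-old female C57BLKS/J mice carrying Lepr db/db, a loss of the leptin receptor that leads to obesity and type 2 diabetes. Estradiol benzoate, dissolved in sesame oil, was put on their skin daily (0.75 μg/g each day). The WT animals were female C57BL/6J mice aged 10 to 12 weeks and were left untreated. Untreated db/db mice and db/db mice given sesame oil alone, both of the same strain, age and sex as the treated animals, were also on arrays labelled day 7 and are given beside some results. Strain, diabetes, the oil and estrogen all differ between the estrogen-treated db/db and WT groups, and their parts cannot be told apart in this comparison. Each mouse carried 2 wounds, and RNA came from whole homogenized tissue that held the wound and the intact skin around it, so fewer cells of a type and less RNA per cell cannot be told apart. The study's tables assign the fold changes of these arrays to the other harvest day, so the day given here is that of the sample label alone.

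A skin wound is closed by keratinocytes that leave their resting state at the wound edge, switch on the stress keratins Krt6, Krt16 and Krt17 together with small proline-rich and late cornified envelope proteins, and migrate over new tissue. Neutrophils and then macrophages clear the wound, and macrophages move from an inflammatory state towards one that favours repair, often called alternatively activated. Estrogen acts through the nuclear receptors Esr1 and Esr2, which switch on target genes such as the progesterone receptor, and estrogen is known to dampen inflammation and to speed re-epithelialization of skin wounds.

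All levels below are log2 array signals relative to the 75th percentile of the same array, so that 0 is that percentile and a difference of 1 is 2-fold. A probe was called higher or lower where limma, fitted over all 16 arrays, gave a Benjamini-Hochberg adjusted p under 0.05 and the groups differed by more than 2-fold. Of 29773 probes tested, 1184 were called, or 3.98%, with 619 higher in the estrogen-treated db/db wounds (2.08%) and 565 lower (1.9%). The called probes with a gene name stood for 827 genes, 284 of the called probes differed by more than 8-fold and 60 by more than 32-fold. The median difference over all probes tested was -0.02. The 75th percentile of the raw signal was 1401 and 1918 in the estrogen-treated arrays and 1204 and 1404 in the WT arrays, 73.4 to 77.8% of probes stood well above background on these arrays, and none was saturated. Between the 2 replicates, 2.09% of probes in the estrogen-treated group and 6.13% in the WT group lay more than 2-fold apart. Each slide held 1 array of every group labelled day 7, and 1005 of the 1184 called probes differed by more than 2-fold in the same direction on each. The 2 groups did not overlap for any called probe, which by itself gives the same direction on both slides. Of all probes tested 57.6% did not overlap either, so non-overlap of a called gene adds nothing to its call. With 2 arrays per group the count depended on single arrays: 604 probes were called without replicate 1 of the estrogen-treated group and 420 without its replicate 2, against 1651 and 1090 without replicate 1 or 2 of WT. The skin origin of all 4 arrays showed in the basal keratins Krt5 and Krt14, the suprabasal keratin Krt10 and the collagen genes, which are given below.

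**Figure D1:**
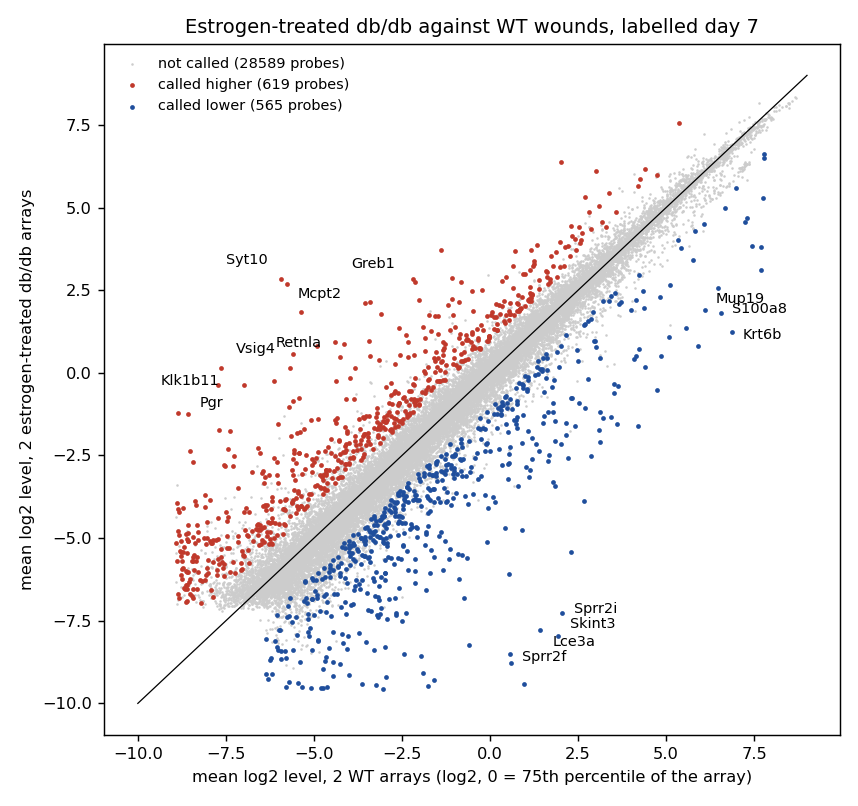
Mean log2 level of each probe in the 2 estrogen-treated db/db arrays against the 2 WT arrays, with 0 as the 75th percentile of the array. Coloured points are the 619 probes called higher and the 565 called lower, and a group of Sprr2, Lce3 and Skint genes lies far below the rest.

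The genes that keratinocytes switch on at a wound edge formed the most shifted of the larger lists. All 29 tested genes of this list had lower values in the estrogen-treated db/db wounds, 22 passed the test, and the median difference was -4.75 against -0.02 over all probes, or -4.59 with genes not above background in a group at their bound. The summed linear level of the list was 231 and 220 in the estrogen-treated arrays and 1201 and 1376 in the WT arrays. The small proline-rich proteins of the Sprr2 family, which are cross-linked into the cornified envelope of the epidermis, made up the largest part, and 8 of 9 tested members were lower with a median of -6.54, or -5.33 with such genes at their bound. The family sits in tandem on chromosome 3, and stretches of the start regions of 4 of its called members are shown because these neighbours moved together. The sequences are from RefSeq on build GRCm38.p6, all on the + strand, and run from position -200 to -81 before the annotated start of each gene. Sprr2e lies at chr3:92351943-92352062, Sprr2f at chr3:92364987-92365106, Sprr2i at chr3:92407791-92407910 and Sprr2k at chr3:92432382-92432501. Capitals mark matches to the AP-1 motif TGANTCA and to the octamer motif ATTTGCAT, searched on both strands.
Sprr2e: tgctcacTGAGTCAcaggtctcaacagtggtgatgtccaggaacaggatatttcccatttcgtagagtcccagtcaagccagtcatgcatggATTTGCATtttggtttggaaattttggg
Sprr2f: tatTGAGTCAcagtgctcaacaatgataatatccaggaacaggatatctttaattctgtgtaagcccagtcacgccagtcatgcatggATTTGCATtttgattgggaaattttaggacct
Sprr2i: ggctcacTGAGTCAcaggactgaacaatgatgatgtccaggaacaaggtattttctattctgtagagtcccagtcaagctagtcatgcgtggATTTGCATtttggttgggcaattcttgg
Sprr2k: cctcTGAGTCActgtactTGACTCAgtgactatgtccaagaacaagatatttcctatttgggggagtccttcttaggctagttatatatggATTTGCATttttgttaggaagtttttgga
AP-1 is a transcription factor of growth and stress signals, and the octamer is the letter pattern that POU factors bind. Of the 8 called Sprr2 genes, 7 had a start region in the table, and all 7 of these held both motifs within the 250 bases before and 50 bases after the start. Among all 32851 start regions of that length, 7.81% held TGANTCA and 1.74% held ATTTGCAT. Sprr2a2, whose brightest probe was not called but whose other probes were, held neither motif in its start region. Over the whole keratinocyte list TGANTCA was in 9 of 19 start regions of called genes and in 2 of 4 of genes not called. For ATTTGCAT the counts were 7 of 19 and 0 of 4, and all 7 were Sprr2 genes, which are close copies of each other. The motifs were looked for after the values had been seen, and a match is a description of letters and not of a bound site.

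The levels behind these calls were as follows. Sprr2i stood at -7.06 and -7.45 in the estrogen-treated wounds and at 1.45 and 2.61 in the WT wounds. It was not well above background on either estrogen-treated array, so it was at least 609-fold lower (adjusted p 0.000313 by limma). Sprr2f stood at -8.39 and -8.62 against 0.02 and 1.09 in WT and was at least 219-fold lower. The groups did not overlap for either gene, which held for all 1184 called probes and for 57.6% of all probes tested. In the other diabetic wounds Sprr2i stood close to WT or above it, at 1.79 and 2.60 in untreated db/db and at 5.49 and 3.02 in oil-treated db/db wounds. Sprr2b and Sprr2k were also not well above background on either estrogen-treated array and were at least 40.1-fold and 15.9-fold lower. Sprr2g and Sprr2e differed from WT by -7.74 and -6.54, Sprr2d by -5.10 and Sprr2h by -4.81. The related Sprr1b, a cornified envelope precursor of stressed epidermis, differed by -5.82. Sprr2a2 differed by -0.22 on its brightest probe, which was not called (adjusted p 0.478), while its other probes were called at -3.90 and -3.72. Because the Sprr2 genes are close copies of each other, a probe named for one may read another, and the separate values are uncertain. The call for Sprr2k was lost with slide as a block (adjusted p 0.0527) and without replicate 2 of WT or either estrogen-treated array (0.122 to 0.195).

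The late cornified envelope genes of the Lce3 group, which are switched on after barrier injury, were lower in 5 of 5 tested members with a median of -5.37. Lce3a stood at -7.45 and -8.10 in the estrogen-treated wounds and at 1.16 and 1.68 in WT wounds, at least 399-fold lower (limma adjusted p 0.000713). Among the stress keratins, Krt6b, a partner of Krt16 in wound-edge and hair follicle keratinocytes, stood at 0.49 and 2.00 against 6.82 and 6.91, a difference of -5.62 ± 0.53 (SE) or 49.0-fold. Krt16 stood at 3.70 and 4.0 against 7.22 and 7.65 and differed by -3.58 ± 0.37. For all 3 genes both estrogen-treated arrays lay below both WT arrays. Krt6a differed by -3.11 ± 0.80 and Krt17 by -1.76, and both missed the adjusted threshold (p 0.0527 and 0.0512). The calcium-binding alarmins S100a8 and S100a9, made by stressed keratinocytes and by neutrophils, also stood lower. S100a8 stood at 0.92 and 2.69 against 6.56 and 6.55 (-4.75 ± 0.45, adjusted p 0.00044). S100a9 stood at 2.02 and 4.19 against 7.72 and 7.66 (-4.59 ± 0.51). The 2 estrogen-treated arrays differed from each other here by more than the WT arrays did, yet both lay well below WT.

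Keratins and matrix genes of resting skin did not show a drop of this size. Krt5, the keratin of basal cells, stood at 7.72 and 7.55 in the estrogen-treated wounds and at 7.37 and 7.03 in WT wounds (0.44 ± 0.30, adjusted p 0.462). Its partner Krt14 differed by -0.44 (adjusted p 0.597), and Krt10 of the suprabasal layers stood at 6.83 and 5.95 against 6.42 and 6.84. Among resting epidermal and granular layer genes 1 of 39 was called on its brightest probe, Casp14, a protease of cornification, at -2.11. Over all probes tested 3.98% were called. Of the 39 genes, 28 had values below WT. At an unadjusted limma p under 0.05 with a 2-fold difference 8 were lower and 0 higher, so the list leaned the same way by smaller amounts. The list median was -0.44. A second probe of Krt2, a keratin of this list, was called higher, at least 107-fold (limma adjusted p 0.0313). Set against untreated db/db wounds, the estrogen-treated wounds were lower for 24 of 29 wound-activated keratinocyte genes, and against oil-treated wounds also for 24 of 29. The median difference from WT was -0.11 in untreated db/db and 0.77 in oil-treated wounds, comparisons that use the same WT arrays. On the arrays labelled day 14 the median of estrogen-treated minus WT was 0.11. Without 1 array the count of genes called lower in this list was 16 without replicate 2 of the estrogen-treated group, 18 without its replicate 1, and 19 and 21 without replicate 2 or 1 of WT. The call for Casp14 was lost without any single array (adjusted p 0.0578 to 0.241). Within the slides the keratinocyte list median was -4.56 and -4.73.

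**Figure D2:**
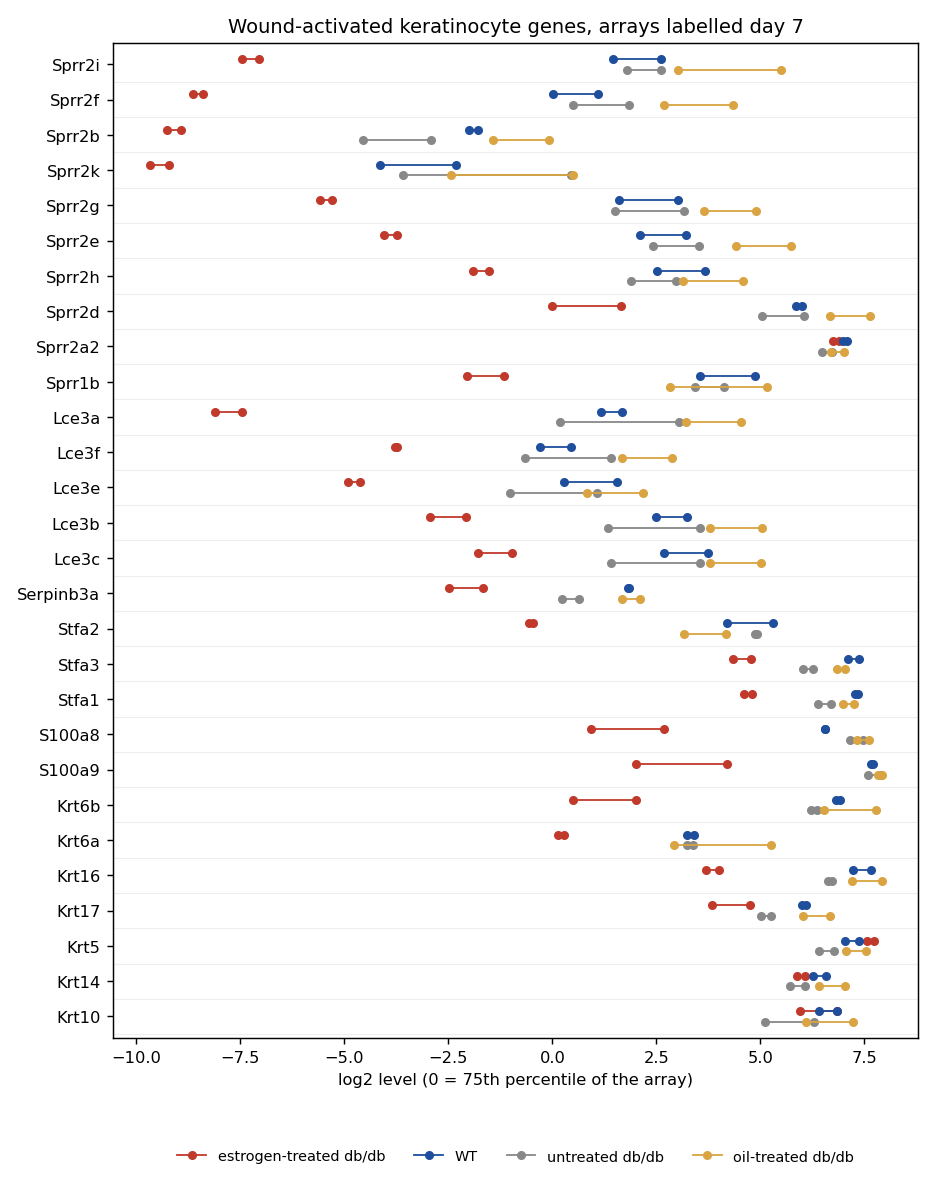
Log2 level of 28 keratinocyte genes on each array labelled day 7 in estrogen-treated db/db, WT, untreated db/db and oil-treated db/db wounds, each point an array and each line joining the 2 arrays of a group. The estrogen-treated arrays stand apart at low values for the Sprr2, Lce3, stefin A and stress keratin genes, while the levels of Krt5, Krt14, Krt10 and the brightest Sprr2a2 probe lie close together.

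The stefin A genes, which encode inhibitors of cysteine proteases and lie in a cluster of near copies, were lower in 4 of 4 tested members with a median of -3.94. Stfa2 stood at -0.47 and -0.57 against 4.20 and 5.31 in WT (-5.27 ± 0.64), and Stfa1 stood at 4.80 and 4.60 against 7.27 and 7.34 (-2.61 ± 0.26). The WT arrays lay further apart for Stfa2 than for Stfa1, and the groups did not overlap for either gene. Defb3, an inducible beta-defensin, stood at -9.28 and -9.56, not well above background, against -3.40 and -3.87, and was at least 12-fold lower (adjusted p 0.00233). Slpi, a secreted inhibitor of neutrophil elastase, stood at 1.35 and 0.58 against 3.01 and 2.96 (-2.02, adjusted p 0.0251). Of 15 antimicrobial genes tested, 1 was higher and 2 lower. The serine protease inhibitor Serpinb3a differed by -3.91, and Uox, the enzyme that degrades uric acid, stood at -4.06 and -2.54 against 1.49 and 2.11 (-5.10 ± 0.73, adjusted p 0.00377). The call for Slpi was lost without any single array (adjusted p 0.0519 to 0.218), and that for Serpinb3a without replicate 1 of the estrogen-treated group (0.0648).

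The kallikreins, serine proteases that lie in one gene cluster, split by subfamily. The glandular kallikrein Klk1 and the Klk1b genes had positive differences in 13 of 13 tested members, from 0.26 to 6.64 with a median of 2.21, or 1.77 with genes not above background at their bound, and 7 of them were higher. Klk1b11 stood at -0.45 and -0.26 in the estrogen-treated wounds and at -5.74 and -8.24 in WT wounds (6.64 ± 0.78, adjusted p 0.00125), where 1 of the 2 WT arrays was well above background. It was also low in untreated db/db wounds, at -6.22 and -6.60, and stood between in oil-treated wounds, at -2.96 and -4.21. Klk1b4 stood at -3.06 and -2.83 against -5.21 and -6.04 in WT (2.68 ± 0.35), and Klk1b24, Klk1b8, Klk1 and Klk1b21 were higher by 2.38, 2.31, 1.77 and 1.29. Klk1b27, not well above background on either WT array, was at least 2.89-fold higher. These genes are near copies of each other, so that probes may share targets. The epidermal kallikreins and the other members, 11 genes, had a median of -1.75, and 4 of them were lower. Klk13 stood at -1.92 and -1.30 against 2.20 and 2.64 (-4.03 ± 0.53, adjusted p 0.00236), Klk14, a trigger of corneocyte shedding that was not well above background on either estrogen-treated array, was at least 5.76-fold lower, and Klk6 and Klk9 differed by -3.85 and -2.42. Over the whole list, 5 genes were called higher without replicate 2 of the estrogen-treated group and 6 or 7 without any of the other 3 arrays. Of the 4 lower genes, 1 was called without replicate 2 of either group, 2 without replicate 1 of the estrogen-treated group and 3 without replicate 1 of WT.

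Classical estrogen-responsive genes separated the groups in a different way, since only a few of the list moved and those moved far. Of 24 estrogen receptor and estrogen-responsive genes tested, 3 were higher and 2 lower, with a median of -0.10. Pgr, the progesterone receptor, stood at -1.41 and -1.09 in the estrogen-treated wounds and at -8.55 and -8.58 in WT wounds, where it was not well above background, and was at least 40.6-fold higher (adjusted p 5.29e-06 by limma). It stood at -9.51 and -9.22 in untreated db/db wounds and at -3.76 and -4.11 in oil-treated db/db wounds. The oil-treated wounds thus lay between the estrogen-treated and untreated diabetic wounds, and estrogen-treated minus oil-treated was 2.68. Greb1, a cofactor of the estrogen receptor and one of its targets, stood at 2.77 and 2.90 against -2.07 and -2.30 in WT, 32.5-fold higher (5.02 ± 0.52, adjusted p 0.000713). Its levels were -5.19 and -3.57 in untreated and 0.45 and 0.28 in oil-treated db/db wounds, the same order of groups as for Pgr. Ramp3, an accessory protein of adrenomedullin receptors, stood at 2.32 and 1.77 against -0.91 and -1.46 (3.23 ± 0.42). The 2 lower genes were Areg, an EGF receptor ligand, at -2.71 and -3.31 against -1.14 and 0.02 (-2.45 ± 0.45), and Tff1, a secreted trefoil peptide, at -7.00 on both arrays against -3.93 and -3.87 (-3.10 ± 0.57), with 1 of the 2 estrogen-treated arrays well above background. Pgr, Greb1 and Ramp3 kept their calls without any single array. The call for Tff1 was lost without replicate 2 of WT or either estrogen-treated array (adjusted p 0.0572 to 0.0982), and the call for Areg without replicate 2 of WT (0.0713) or of the estrogen-treated group (0.128).

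The estrogen receptors themselves did not differ past the threshold. Esr1 stood at -2.10 and -1.85 in the estrogen-treated wounds and at -1.13 and -1.61 in WT wounds (-0.60, adjusted p 0.388), with -3.53 and -3.22 in untreated db/db wounds. Esr2 differed by -0.38 (adjusted p 0.658). The palindromic estrogen response element was found in none of the start regions of the 4 called genes of this list that the table held, nor in those of the 17 genes not called, and 0.07% of all start regions held it. That window covers only the sequence next to the start. On the arrays labelled day 14 Pgr, again not well above background in WT, was at least 84.6-fold higher and Greb1 was higher by 4.03.

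Genes of alternatively activated macrophages were the list with the most higher calls. Of 26 tested, 13 were higher and 1 lower, with a median of 1.88, or 1.75 with genes not above background at their bound, while general macrophage genes had 5 of 27 higher and a median of 0.19. Cd209b, a lectin of tissue-resident macrophages, stood at -1.56 and -0.85 in the estrogen-treated wounds and at -8.82 and -8.87, not well above background, in WT wounds, at least 41.9-fold higher (adjusted p 0.00243). Retnla, a secreted protein that interleukin 4 switches on in macrophages, stood at 0.29 and 1.48 against -3.74 and -4.53, 32.4-fold higher (5.02 ± 0.63). It stood at -5.22 and -3.99 in untreated and -3.95 and -4.76 in oil-treated db/db wounds, so the 2 estrogen-treated arrays lay above all 6 others of that day. Clec10a, a galactose-type lectin, stood at 6.26 and 6.49 against 2.62 and 1.42 (4.35 ± 0.37, adjusted p 0.000258). Folr2, the folate receptor of resident macrophages, stood at 3.61 and 3.78 against 0.70 and 0.73 (2.98 ± 0.26). Clec10a was also well above WT in the other diabetic wounds, at 4.33 and 4.48 in untreated and 5.44 and 5.39 in oil-treated db/db wounds. Cd163, the haemoglobin scavenger receptor, stood at -1.80 and -1.28 against -4.69 and -7.32 (4.47, adjusted p 0.00573), with 1 of the 2 WT arrays well above background. Of the Cd209 family, whose members are close copies, 4 of 6 tested genes were higher, with Cd209f at 5.70, Cd209d at 3.56, and Cd209g, not well above background in WT, at least 11.7-fold higher. Fcna, a ficolin of the lectin complement pathway, was higher by 3.48, the transglutaminase F13a1 by 2.62 and the interleukin 4 receptor chain Il4ra by 1.80. Cd209b, Retnla, Clec10a and Folr2 kept their calls without any single array, while Cd163, Cd209d, Cd209f, Cd209g, Fcna, F13a1 and Il4ra were each lost without at least 1 array, F13a1 and Cd163 only without replicate 2 of the estrogen-treated group (adjusted p 0.0738 and 0.0623).

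Not every gene of that state was higher. Arg1, the arginase that is its most used marker, was the gene called lower, at -0.21 and -0.23 in the estrogen-treated wounds against 1.66 and 1.97 in WT wounds (-2.03 ± 0.48, adjusted p 0.0379). It stood at 4.39 and 4.21 in untreated and 5.39 and 4.53 in oil-treated db/db wounds, well above both groups. Chil3, a chitinase-like protein, differed by -0.57 (adjusted p 0.665) and the mannose receptor Mrc1 by 1.62 (0.108). Among general macrophage genes, Vsig4, a complement receptor of resident macrophages, stood at -0.01 and 0.33 against -6.27 and -5.11, 57.6-fold higher (5.85 ± 0.53, adjusted p 0.000356). The pan-macrophage genes were higher by smaller amounts. Adgre1, which encodes F4/80, stood at 3.23 and 3.16 against 2.21 and 1.77 (1.21 ± 0.29, adjusted p 0.0393), and the complement subunit C1qa differed by 1.45. Csf1r, the receptor of the macrophage growth factor, differed by 1.27 on its brightest probe and by 0.49 on a probe that was not called. The call for Arg1 was lost without any single array (adjusted p 0.0764 to 0.206), and those for Adgre1, C1qa and Csf1r without at least 2 of the 4. With slide as a block 3 general macrophage genes were called higher and Adgre1 was not (0.0715). The macrophage calls rested on few arrays: without replicate 2 of the estrogen-treated group 4 genes of the alternatively activated list and 1 of the general list were called higher, without replicate 2 of WT 6 and 1, without replicate 1 of the estrogen-treated group 7 and 2, and without replicate 1 of WT 14 and 7. The median of the alternatively activated list was 1.38 and 2.63 within the slides, and 0.88 and 1.60 for untreated and oil-treated db/db minus the same WT arrays.

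**Figure D3:**
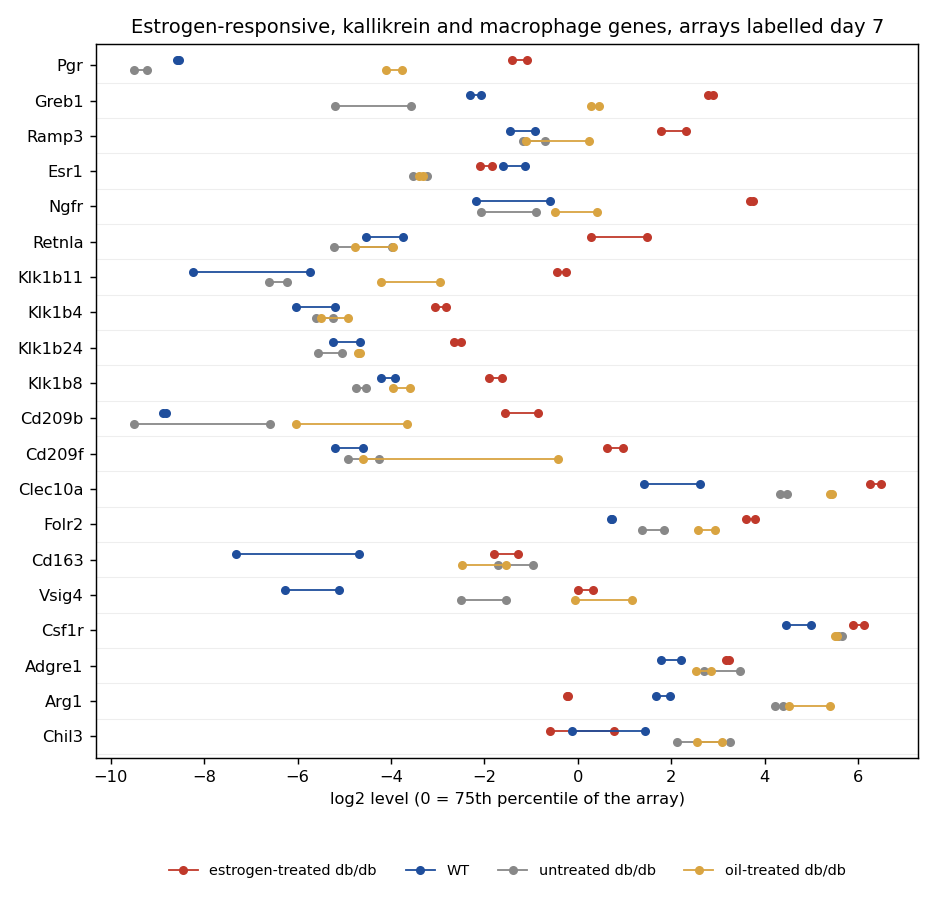
Log2 level of 20 estrogen-responsive, kallikrein and macrophage genes on each array labelled day 7, each point an array and each line joining the 2 arrays of a group. Pgr, Greb1, Klk1b11, Retnla and Cd209b are highest on the 2 estrogen-treated arrays, while Arg1 is highest in the untreated and oil-treated db/db wounds.

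Neutrophil and inflammatory cytokine genes were called in both directions between the estrogen-treated db/db and WT wounds. Of 30 neutrophil genes 3 were higher and 8 lower, but 5 of the 8 also belong to the wound-activated keratinocyte list. Outside that list 25 genes had a median of -0.30 with 3 higher and 3 lower. Camp, the cathelicidin stored in neutrophil granules, stood at -3.40 and -3.98 in the estrogen-treated wounds and at -3.81 and -3.57 in WT wounds, and at 4.11 and 2.66 in untreated db/db wounds. The treated and WT arrays thus overlapped and both lay far below the untreated diabetic wounds. Cxcr2, the chemokine receptor that draws neutrophils into tissue, differed by -2.39 (adjusted p 0.044), while the granule genes Ltf and Mpo differed by -0.69 and 0.63 and were not called. Ctsg, a serine protease of neutrophil and mast cell granules, stood at 0.45 and 0.48 against -4.09 and -4.41 (4.72 ± 0.45, adjusted p 0.000474). Mcpt2, a mast cell protease, stood at 2.62 and 2.76 against -7.07 and -4.46, 351-fold higher (8.46 ± 0.67) with 1 of the 2 WT arrays well above background, and at 2.66 and 3.56 in untreated db/db wounds. All 4 of these diabetic arrays were above both WT arrays for Mcpt2, while 1 of 17 mast cell, basophil and eosinophil genes was higher and 1 lower. Ctsg and Mcpt2 kept their calls without any single array, and Cxcr2 did not (adjusted p 0.0936 to 0.197).

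Of 37 cytokine and chemokine genes, 4 were higher and 2 lower, with a median of -0.80. Il10, an anti-inflammatory cytokine, stood at -4.20 and -4.05 against -5.62 and -6.10 (1.73 ± 0.19, adjusted p 0.000908). The chemokines Ccl12, Ccl8 and Cxcl14 were higher by 2.42, 2.20 and 1.97. Ccl3 stood at -1.35 and -1.48 against 1.08 and 0.28 (-2.10 ± 0.48, adjusted p 0.0326), and Ccl4, its close relative, also differed by -2.10. For Ccl3 the treated arrays were close together and below both WT arrays. The inflammatory cytokines Il1b and Tnf differed by -2.67 (adjusted p 0.17) and 0.01 (0.994), and the neutrophil attractant Cxcl5 by -3.49 (0.121). Untreated db/db minus the same WT arrays gave a list median of 1.82 and oil-treated minus WT gave 1.08. Il10 kept its call without any single array and Cxcl14 lost it without each, and with slide as a block (adjusted p 0.075). The 4 higher calls fell to 1 without replicate 2 of either group and to 2 without replicate 1 of the estrogen-treated group. The calls for Ccl3 and Ccl4 were lost without any of 3 arrays, and held only when replicate 2 of WT was left out. With slide as a block Ccl3 also missed the threshold (0.061).

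Vessel genes were lower or not called. Of 33 tested, 6 were lower and none higher, with a median of -0.55. Apln, the apelin ligand made by sprouting endothelium, stood at -3.48 and -3.89 in the estrogen-treated wounds and at -0.56 and 0.29 in WT wounds, 11.7-fold lower (-3.55 ± 0.43, adjusted p 0.00148). Esm1, an endothelial tip cell product, stood at -3.45 and -3.84 against -1.54 and -0.38 (-2.69 ± 0.48). For both genes the 2 estrogen-treated arrays lay below both WT arrays. The Notch ligand Dll4 differed by -1.40, the junction cadherin Cdh5 by -1.01, Robo4 by -1.03 and Vegfa, the main growth factor of vessels, by -1.36 (adjusted p 0.0461). Pecam1 and Kdr, which endothelium carries at rest, differed by -0.49 (adjusted p 0.279) and -0.15 (0.84). Apln kept its call without any single array. With slide as a block 3 genes were lower, and Cdh5, Robo4 and Vegfa missed the threshold (adjusted p 0.0682, 0.0627 and 0.0664). The count of lower genes was 1 without either estrogen-treated array, 2 without replicate 2 of WT and 4 without its replicate 1.

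In the growth factor, matrix and protease lists 24 of 28, 49 of 52 and 22 of 24 genes were not called. Over all probes tested 3.98% were called, a lower share than in each of these lists, and the difference was not tested. Ngfr, the low-affinity nerve growth factor receptor, was higher, at 3.69 and 3.75 in the estrogen-treated wounds against -2.18 and -0.60 in WT wounds, 34.4-fold (5.11 ± 0.77, adjusted p 0.00485). It stood at -0.90 and -2.07 in untreated and -0.50 and 0.41 in oil-treated db/db wounds, so the estrogen-treated arrays were above all others of that day. In the list of 28 re-epithelialization growth factors, 1 was higher and 3 lower, but the lower calls were lost without replicate 2 of either group, 1 was left without replicate 1 of the estrogen-treated group and 2 without replicate 1 of WT. Of 52 collagen and other matrix genes 2 were higher and 1 lower, with a median of -0.01, and Col1a1 and Col3a1, the main fibrillar collagens, differed by -0.33 (adjusted p 0.577) and -0.31 (0.526). Those counts are for the brightest probe of each gene. A second probe of Sparc was called lower, at -1.65, and further probes of Col15a1 were called higher, at 1.11 and 1.13. Has2, a hyaluronan synthase, stood at 0.29 and 0.58 against -1.05 and -0.99 (1.46 ± 0.26, adjusted p 0.0107), and Plod2, a collagen cross-linking enzyme, was higher by 1.69. Tnc, a matrix glycoprotein of fresh wounds, stood at -2.06 and -2.23 against -0.65 and 0.41 (-2.03, adjusted p 0.0252). Of 24 proteases and inhibitors, the inhibitor Timp3 was higher, at 4.22 on both arrays against 2.70 and 2.54, as was the plasminogen activator Plau, by 1.55. Ngfr kept its call without any single array. The call for Has2 was lost without replicate 2 of the estrogen-treated group (adjusted p 0.107), those for Plod2 and Timp3 without any single array (0.0581 to 0.142 and 0.0588 to 0.157), that for Tnc without replicate 2 of WT or either estrogen-treated array (0.104 to 0.173), and that for Plau without replicate 2 of WT (0.0749) or replicate 1 of the estrogen-treated group (0.111).

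Of 29 adipocyte genes tested, 6 were higher and 2 lower, with a median of 0.90. Lpl, the lipoprotein lipase, stood at 5.98 and 6.21 in the estrogen-treated wounds and at 2.86 and 3.17 in WT wounds (3.08 ± 0.32, adjusted p 0.000679), with 4.11 and 4.39 in untreated db/db wounds. The fatty acid transporter Cd36 was higher by 2.57 ± 0.23, the lipase inhibitor Angptl4 by 2.06 and Agpat2 of triglyceride synthesis by 1.94. The brown fat uncoupler Ucp1, not well above background on either WT array, was called higher with a bound of at least 1.87-fold. Lep, which encodes leptin and is known to be high in mice that lack its receptor, stood at 0.41 and 1.49 against -3.54 and -3.30 (4.37 ± 0.86, adjusted p 0.0178). Cfd, which encodes the adipokine adipsin, stood at 1.75 and 3.41 against 6.51 and 6.44 (-3.89 ± 0.91, adjusted p 0.0364), close to the 2.02 and 2.10 of untreated db/db wounds. The fat cell genes therefore did not share a direction. Adrb3, the beta-adrenergic receptor of adipocytes, differed by -2.36 ± 0.44, and Adipoq, the adiponectin gene, by 0.30 (adjusted p 0.876). Lpl, Cd36 and Angptl4 kept their calls without any single array, while Adrb3 kept it only without replicate 1 of WT. The call for Ucp1 was lost without any single array and with slide as a block (adjusted p 0.0652), and that for Agpat2 without replicate 2 of the estrogen-treated group (0.108). The calls for Lep and Cfd were each lost without any single array, with adjusted p from 0.0561 to 0.161 for Lep and from 0.0811 to 0.216 for Cfd. The count of higher genes was 3 without replicate 2 of the estrogen-treated group and 4 without any of the other 3 arrays.

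**Figure D4:**
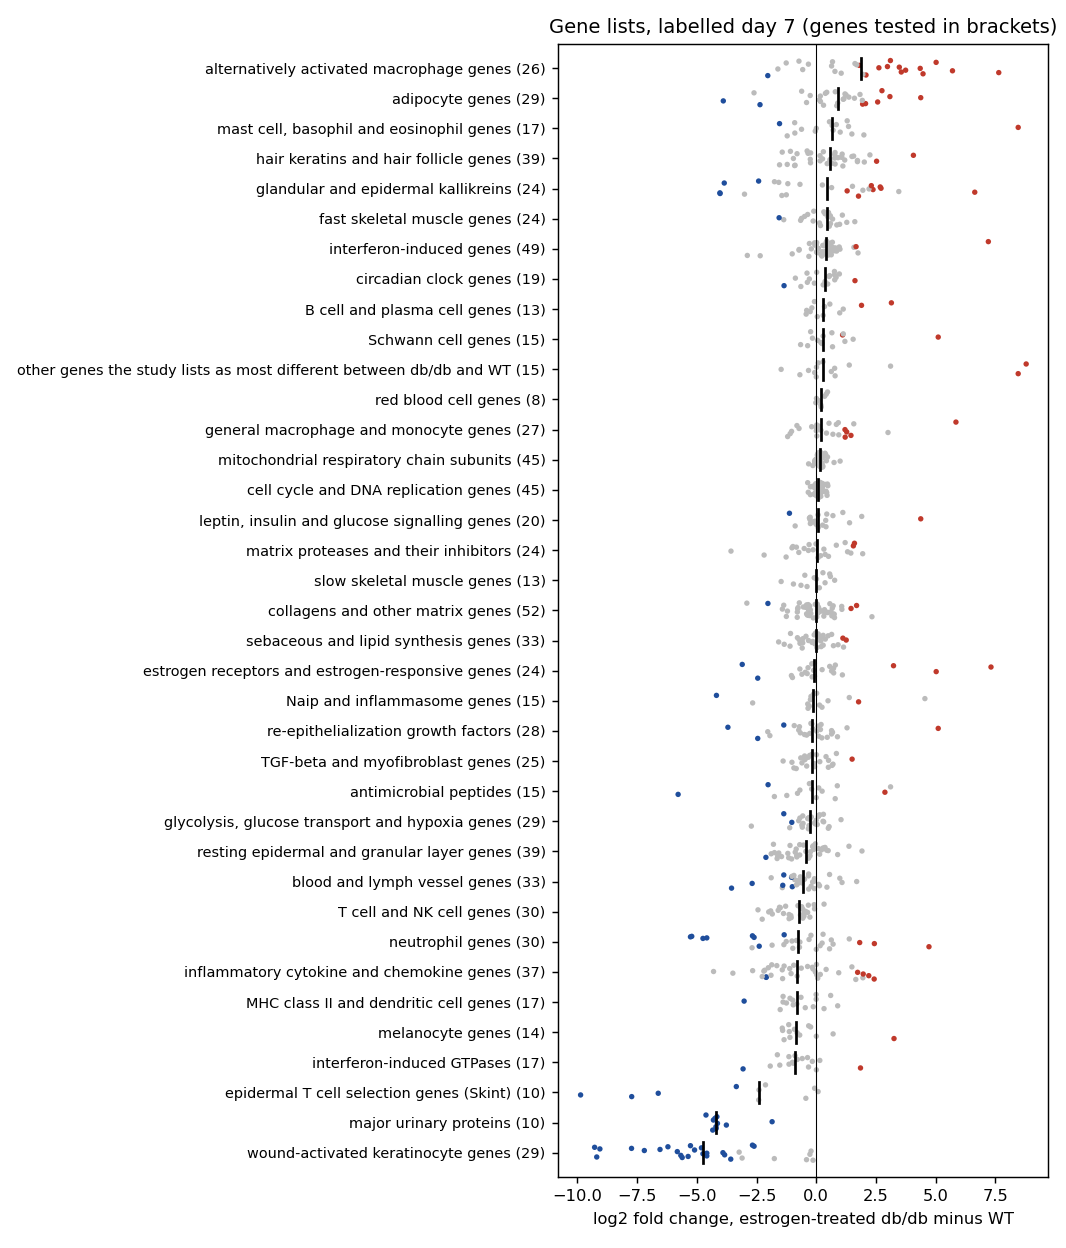
Log2 difference of estrogen-treated db/db minus WT for every tested gene of each list, labelled day 7, with the number of genes tested in brackets genes called higher in red and lower in blue, and the black tick as the list median. The wound-activated keratinocyte and major urinary protein lists lie wholly below 0. In these group means cell cycle and respiratory chain genes stay close to 0, though the cell cycle median had opposite signs within the slides.

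Some of the largest differences were in families that are known to vary between mouse strains. The major urinary proteins, pheromone carriers encoded by a cluster of near copies that differ in number between strains, were lower in 10 of 10 tested genes with a median of -4.20. Mup19 stood at 1.48 and 2.33 in the estrogen-treated wounds and at 6.69 and 5.53 in WT wounds (-4.20 ± 0.68, adjusted p 0.00677). It was lower still in untreated db/db wounds, at -1.31 and -2.66, and in oil-treated wounds, at -2.38 and -1.68, and estrogen-treated minus untreated was 3.89. Of 9 Mup genes tested between estrogen-treated and untreated db/db wounds, 8 were higher with treatment. Without replicate 1 of the estrogen-treated group 5 of the 10 were called lower than WT, and 9 or 10 without any of the other 3 arrays. The fit of the 4 compared arrays called 5 of them, and the fit with replicate number, which is the slide here, as a block on the arrays labelled day 7 called 2. The Skint genes, which encode epidermal proteins that select skin T cells and are known to differ between mouse strains, were lower in 4 of 10. Skint3 stood at -8.79 and -7.11 against 1.64 and 2.20, 936-fold lower (adjusted p 8.98e-05) with 1 of the 2 estrogen-treated arrays well above background, and Skint11 stood at -9.25 and -9.70, not well above background, against -1.76 and -1.74, at least 44.4-fold lower. Skint4 stood at -5.41 and -6.73 against 0.65 and 0.45 (-6.62 ± 0.53), while Skint7 stood at 5.91 and 5.82 against 6.17 and 5.70 and was not called (adjusted p 0.933). The family thus held both near-complete losses of signal and a member at equal level.

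**Figure D5:**
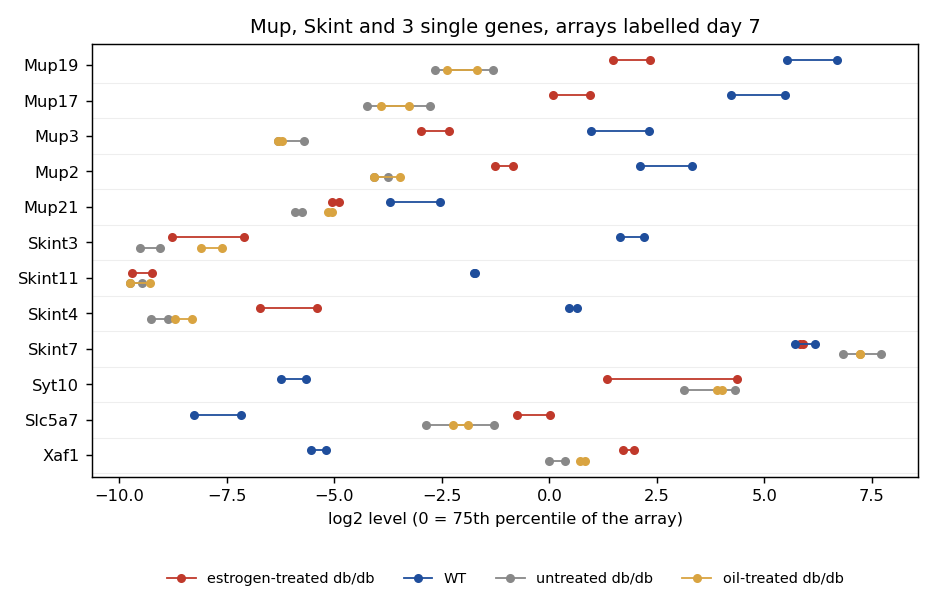
Log2 level of 12 genes on each array labelled day 7, each point an array and each line joining the 2 arrays of a group. The Mup genes are highest on the WT arrays, Skint3, Skint4 and Skint11 are high in WT only, and Syt10, Slc5a7 and Xaf1 are low in WT only.

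Several single genes gave signals near background in 1 of the groups. Over all 16 arrays, 24 called probes stood well above background on the 4 WT arrays and on none of the 12 db/db arrays, and 15 showed the reverse. Syt10, a synaptotagmin of vesicle release, stood at 1.33 and 4.36 in the estrogen-treated wounds and at -6.24 and -5.65 in WT wounds (8.79 ± 1.03, adjusted p 0.00125), with 4.31 and 3.14 in untreated db/db wounds. Slc5a7, the choline transporter of nerve endings, stood at -0.77 and 0.00 against -8.26 and -7.17, not well above background, at least 74.2-fold higher. Xaf1, an interferon-induced regulator of apoptosis, stood at 1.97 and 1.70 against -5.19 and -5.56 (7.21 ± 0.30, adjusted p 1.66e-06), but a second probe of the gene differed by -0.49 and was not called. A similar disagreement was found for Thumpd1, whose second probe was at least 293-fold lower. Where 1 probe of a gene reads near background in 1 group and another does not, the level of the gene is uncertain. Immune genes with large differences included Gbp2, an interferon-induced GTPase, at -0.92 and -0.62 against 2.58 and 2.02 (-3.07 ± 0.36), H2-Aa, an MHC class II chain, at -1.53 and -1.48 against 1.56 and 1.47 (-3.02 ± 0.39), and Nlrp1b, an inflammasome sensor that differs between strains, at -4.18 with 1 of the 2 estrogen-treated arrays well above background. The call for Nlrp1b held without replicate 2 of WT and was lost without any of the other 3 arrays (adjusted p 0.0536 to 0.085). Relatives of these immune genes were called the other way. Of 17 interferon-induced GTPases 1 was lower and 1, Gbp2b, was at least 3.44-fold higher. Of 15 Naip and inflammasome genes 1 was lower and 1, Naip1, was higher by 1.77. A second Naip1 probe, at 1.05, was not called. A probe the study lists as H2-Ea-ps was at least 28.9-fold higher. Over all probes tested 3.98% were called. Dscam, a cell adhesion molecule of neurons, stood at -0.87 and -1.18 against -6.07 and -5.34 (4.68 ± 0.43), and was also higher than in untreated and oil-treated db/db wounds by 5.58 and 3.61.

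The other lists given here held at most 2 called genes each. Over all probes tested 3.98% were called, and each of these lists with a call was at or above that share. None of 45 cell cycle and DNA replication genes was called by limma, with differences from -0.36 to 0.49 and none under an unadjusted p of 0.05 with a 2-fold difference. Nor was any called, at either threshold, of 45 respiratory chain subunits, with a median of 0.14, 13 slow muscle genes and 8 red blood cell genes. Within the slides the cell cycle median was 0.70 and -0.50, and that of the red blood cell genes -1.31 and 1.57. For both lists the mean difference near 0 thus averages opposite shifts on the slides. None of 30 T cell and NK cell genes was called at the adjusted threshold on its brightest probe. A second probe of Gzme was called lower, at -2.61 (limma adjusted p 0.0134). On the brightest probes 29 of the 30 genes had values below WT, with a median of -0.72. At an unadjusted p under 0.05 with a 2-fold difference 13 were lower. Of 17 MHC class II and dendritic cell genes 1 was lower, the H2-Aa named above, with a median of -0.82. Of 49 interferon-induced genes 2 were higher, Xaf1 and Oasl1 at 1.67, the latter lost without either estrogen-treated array (adjusted p 0.0561 and 0.0508). Hair follicle genes had 2 of 39 higher and a median of 0.57, but the median within the slides was 0.949 and -0.215. Both hair calls, Krtap3-1 and Krt34, were lost in the fit with replicate number as a block on the arrays labelled day 7. Of 29 genes of glycolysis and hypoxia 2 were lower. Of 33 sebaceous and lipid synthesis genes 2 were higher, as were 2 of 13 B cell and plasma cell genes and 2 of 15 Schwann cell genes, Ngfr among the latter. Of 14 melanocyte genes 1 was higher, of 25 TGF-beta and myofibroblast genes 1 was higher, and of 24 fast muscle genes 1 was lower. Of 19 circadian clock genes the output gene Dbp was higher by 1.62 and the repressor Bhlhe40 differed by -1.35. The call for Dbp was lost with slide as a block (adjusted p 0.0528) and without any array other than replicate 2 of WT (0.152 to 0.198), and that for Bhlhe40 without any array other than replicate 1 of WT (0.0787 to 0.12). The leptin receptor itself, whose db mutation alters a splice form, differed by -0.29 on its brightest probe (adjusted p 0.753) and by -1.31 on another probe, which was called (0.0126).

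Beside the other groups, the estrogen-treated wounds differed from untreated db/db wounds at 1601 of 30187 probes (5.3%), with 748 higher and 853 lower, and from oil-treated db/db wounds at 1012 of 30149 (3.36%), with 512 higher and 500 lower. The latter count was 196 and 228 without replicate 2 or 1 of the estrogen-treated group and 341 and 659 without replicate 1 or 2 of the oil-treated group, and the former was 621 and 650 without replicate 2 or 1 of the estrogen-treated group. Against the same 2 WT arrays, untreated db/db wounds differed at 2904 of 29745 probes and oil-treated db/db wounds at 1873 of 29684. On the arrays labelled day 14, estrogen-treated and WT wounds differed at 2697 of 30272 probes, 521 higher and 2176 lower. The difference between the labelled days was itself called for 58 of 30916 probes (0.188%), a count that ran from 1 without replicate 2 of the day 14 WT group to 546 without its replicate 1, and was 1 with slide as a block. That last count was for slide as a fixed block, and 53 probes were called with slide as a random block. The arrays of each labelled day were on other slides than those of the other day, so the set of slides and labelled day cannot be told apart.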

How the data were processed

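RNA from whole wound tissue was hybridised to 16 one-colour Agilent mouse arrays, 2 in each of 8 groups. The deposited scanner files hold processed signal intensity per spot from Agilent Feature Extraction 11.0.1.1, corrected for background by the authors. The deposited series matrix holds a linear ratio, each array's processed signal over its 75th percentile, and at least 99.4% of its 34643 probes lay within 0.1% of that value.

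Control spots and outlier spots were left out, spots of a probe were averaged, and log2 intensity was set relative to the 75th percentile of each array's 39429 probes. Probes that the scanner software marked well above background on each of the 2 arrays of 1 or both compared groups were tested in limma 3.58.1 (R 4.3.3) with 1 coefficient per group over all 16 arrays and 8 residual degrees of freedom. A call needed an adjusted p under 0.05 and more than 2-fold. A fold for a probe not well above background on either array of the dimmer group is a lower bound, taken from the lowest signal well above background on each array. The labels call the arrays of a group biological replicates. For a single probe an exact permutation test of 2 against 2 arrays cannot go below p = 0.333, so none is given.

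Gene names came from matching the accession of each probe in the scanner files to RefSeq transcripts, which named 27427 probes, or 69.6%. For each gene 1 probe was used, the brightest over all arrays. The 38 gene lists held 976 genes, 933 of them on the array. Named genes were, in each direction, the 12 with the largest fold among called probes above background on all 4 arrays and the 8 with the largest bound, up to 4 called and 2 not called genes of each list, the genes the study lists as most different between db/db and WT, and 10 others set by name. Further list members are named and were chosen after their values were seen. The comparison, its members and the lists were chosen with earlier results of these data known. Simulated data held 29705 probes, 50 of them changed at each size and the rest unchanged. The fit called 7, 32, 36 and 46 of 50 at 2, 3, 4 and 8-fold, and 17 unchanged probes. Alternatives were normexp background correction, quantile normalization, other filters on dim probes, a floor and the series matrix values. Smaller sets of arrays, a replicate block, other thresholds and each array left out were also used. Slide was fitted as a fixed block, which is meant wherever slide as a block is written, and as a random block (statmod 1.5.0).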

Additional observations from a re-analysis of the deposited data

Results flagged for a closer look

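For 13 named genes the estrogen-treated minus WT difference itself differed between the arrays labelled day 7 and day 14, by limma over all 16 arrays, with adjusted p from 0.0148 to 0.04. All 13 had the lower value on the arrays labelled day 7. Both day 14 WT arrays were on 1 slide, and with slide as a fixed block none of the 13 passed the threshold (adjusted p 0.102 to 0.157). Of the 13 genes, 6 (Sprr2i, Sprr2f, Lce3a, Sprr2b, Defb3 and Adgrf1) were not well above background on either estrogen-treated array labelled day 7, so the size of their difference and its SE are not measured exactly. Among wound-activated keratinocyte genes the day 7 value minus the day 14 value, with its SE, was -10.59 ± 1.18 for Sprr2i, -10.89 ± 1.33 for Sprr2f, -9.47 ± 1.36 for Lce3a, -9.26 ± 1.19 for Sprr2g. It was -9.08 ± 1.01 for Sprr2b, -8.18 ± 0.94 for Sprr2e, -5.59 ± 0.75 for Krt6b, -4.43 ± 0.63 for S100a8, -6.06 ± 0.91 for Stfa2. On the arrays labelled day 14 the estrogen-treated minus WT difference was 1.30 for Sprr2i, 0.28 for Lce3a and -0.02 for Krt6b, while the fitted values on day 7 were -9.28, -9.19 and -5.62. The beta-defensin Defb3 differed between days by -8.64 ± 1.07, the urate oxidase gene Uox by -6.83 ± 1.04, the adhesion receptor gene Adgrf1 by -5.93 ± 0.89, and the stefin gene Stfa2l1 by -6.17 ± 0.91. The set of slides and labelled day cannot be told apart, and the whole count of probes called for this difference depended strongly on single arrays.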

How the results depend on the processing

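Of 105 named genes called between estrogen-treated db/db and WT wounds, none reversed in any alternative, 34 kept their call in all of them and 44 kept it without every single array. The 1184 probes called became 702 with normexp, 731 in a fit of the 4 compared arrays, 2463 at an unadjusted p under 0.05, and 420 to 1651 when single arrays were left out. The share higher was 52.3%, and 40.2% and 33.2% without replicate 1 or 2 of WT. The number of list genes called was 132, 247 at the unadjusted threshold and 60 to 130 without single arrays, and over all 191 named genes the number called, 105, was 66 in the fit of the compared arrays and 49 to 86 without single arrays.

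For estrogen-treated against untreated db/db wounds, 1601 probes became 920 with the compared arrays alone, 997 with the arrays labelled day 7, 3023 unadjusted and 621 to 1278 without single arrays. Against oil-treated wounds, 1012 became 669 with normexp, 637 with no filter, 2741 unadjusted and 196 to 659 without single arrays. The 58 probes of the difference between labelled days became 4 with normexp, 32 with no filter, 12 with all arrays above background, 2 with the compared arrays, 1 with slide as a block, 2360 unadjusted and 1 to 546 without single arrays. The count of 1 with slide as a block was for a fixed block, and slide as a random block gave 53. The cause of these changes was not tested.

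On the arrays labelled day 7 replicate numbers matched the slides, but the deviations of same-numbered arrays labelled day 7 correlated from -0.312 to 0.386, so the numbers were not taken as pairs. With the replicate block, fitted on the arrays labelled day 7, 478 probes were called against WT, 705 against untreated and 353 against oil-treated db/db wounds, with 58 list genes and 50 named genes, 49 of them among the 105. Simulated 2-fold differences were called in 7 of 50 probes, so changes of that size were mostly missed in the simulation. It changed 50 probes at each size, fewer than the 1184 called in the data, so its adjusted threshold was not that of the data. It also called 17 unchanged probes. A call itself needs an estimate above 2-fold, so the 7 of 50 do not tell the part played by having 2 arrays a group.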
